A study of Mus musculus with 9 samples.

Results

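The genes described here are the immediate early genes Fos, Fosb, Fosl2, Jun, Junb, Egr1, Ier2, Ier3 and Atf3, together with Myc. They were taken as every probe set that the platform table of the Affymetrix mouse array annotates to 1 of these symbols, which gave 12 probe sets for 10 genes, out of 45101 probe sets and 18193 genes. Fosl2 and Jun had 2 probe sets each, and the other genes had 1. Values were read on each of 9 arrays from mouse embryos at embryonic day 16.5. There were 3 arrays of the condyle of the temporomandibular joint (the jaw joint), 3 of its fossa and 3 of the whole body. Tissue of all 3 groups was cut by laser from fresh frozen sections, and the groups differ in the tissue captured. The labels give no strain, genotype or agent and do not say which embryo each array came from, so p-values measure the spread between these arrays.

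Immediate early genes are transcribed within minutes of a growth factor, stress or mechanical signal, from factors such as SRF, its Elk partners and CREB that already sit on their promoters and need no new protein. Fos and Jun proteins pair to form AP-1, a transcription factor that in skeletal tissue acts in bone-forming, bone-resorbing and cartilage cells. Myc, which responds to the same signals, binds DNA with its partner Max and drives genes of ribosome building, nucleotide synthesis and growth.

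The promoter stretches of Fos, Fosl2 and Jun are shown because Fosl2 and 1 probe set of Jun carried AP-1 differences between the tissues, while Fos itself varied most within a group. Each is the 100 bases just before the gene's start in RefSeq's table of assembly GRCm38.p6, 5′ to 3′ on the gene's own strand. Capitals mark motifs found by a letter search on both strands. They lie at chr12:85473790-85473889 (plus strand) for Fos, chr5:32136372-32136471 (plus strand) for Fosl2 and chr4:95052223-95052322 (minus strand) for Jun.
Fos: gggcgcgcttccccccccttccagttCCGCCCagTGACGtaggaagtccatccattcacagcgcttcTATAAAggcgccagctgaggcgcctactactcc
Fosl2: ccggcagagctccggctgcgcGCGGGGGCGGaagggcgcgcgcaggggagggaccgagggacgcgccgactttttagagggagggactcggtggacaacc
Jun: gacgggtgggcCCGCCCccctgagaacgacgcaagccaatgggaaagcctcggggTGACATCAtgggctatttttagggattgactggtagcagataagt

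In Fos the capitals are a GC box (GGGCGG, here on the opposite strand), the short form of the cAMP response element (TGACG) from base -66 to base -62, and a TATA box (TATAAA) from base -33 to base -28. In Jun they are a GC box and the variant element TGACATCA from base -45 to base -38. In Fosl2 they are an EGR site (GCGGGGGCG) from base -79 to base -71, which overlaps a GC box. The search ran over windows of 300 bases, 250 before the start and 50 from it, for 7 of the 10 genes. Egr1, Ier2 and Myc were not searched. TGACG stood in 4 of the 7 windows (Atf3, Fos, Fosb and Junb) and in 20.8% of all 32851 promoters. GGGCGG stood in 6 of 7 and in 35.7% of all, and TATAAA in 2 of 7 and in 13.6% of all. GCGGGGGCG stood in 2 of 7 (Fosb and Fosl2) and in 2.91% of all, and TGACATCA in Jun alone of the 7 and in 3.62% of all. The full element TGACGTCA (1.79% of all), the AP-1 element TGACTCA (5.2%), the CArG box of SRF (1.63%) and the Myc E-box CACGTG (7.15%) stood in 0 of the 7 windows. Bases outside the windows were not searched, so 0 of 7 does not show that these genes lack the elements. A match describes letters in the window and nothing about binding.

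Cartilage markers set both joint tissues apart from whole body, while condyle and fossa overlapped. The mean log2 intensity of 6 cartilage genes was 8.34 to 9.42 for condyle arrays, 8.48 to 9.99 for fossa arrays and 4.37 to 5.20 for whole body arrays. For 4 bone genes it was 8.08 to 10.48, 8.69 to 10.99 and 6.91 to 7.03 in the same order. For 6 neuron genes it was 4.88 to 8.29, 5.47 to 7.16 and 6.47 to 6.59. For 5 liver genes it was 4.82 to 5.67, 2.97 to 5.45 and 12.75 to 13.10. For 4 erythroid genes it was 4.93 to 5.55, 3.75 to 5.35 and 10.41 to 10.65. For 8 skeletal muscle genes it was 5.57 to 7.63, 6.11 to 7.94 and 7.95 to 8.21. Liver and erythroid markers thus lay far higher in whole body than in either joint tissue. The purity of the captured tissue was not tested. Single arrays stood apart: fossa 1 had the smallest share of probe sets above background, 30.3%, against 37.4% to 46.9% elsewhere. Its 3 prime minus 5 prime value of the control transcripts was the lowest, 4.24 against 5.56 to 6.78, which is the smallest excess of 3 prime signal. On all 9 arrays the 3 prime signal was higher, by at least 4.24 on the log2 scale. On that value all condyle arrays, at 6.01 to 6.78, lay above all fossa arrays, at 4.24 to 5.95. The value thus moved with the comparison of condyle with fossa, and its part in those results was not tested. Fossa 2 had the lowest mean of 8 epithelial markers, 4.95 against 7.31 to 8.90, with 0 of the 8 at background in any group. The control probe set for 18S ribosomal RNA read 14.27 to 14.42 on the whole body arrays and 5.90 to 9.75 on the arrays of both joint tissues, so it moved with every comparison with whole body. Its part in those results was not tested. The deposited distributions were not aligned at the top, with a mean upper quartile of 4.85 for condyle, 4.18 for fossa and 4.45 for whole body. A probe set counted as above background on an array where it was brighter than all 27 bacterial control probe sets there.

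Of the 10 genes, 6 (Fos, Fosl2, Jun, Egr1, Ier3 and Myc) were above background on all 9 arrays. Junb, Ier2 and Atf3 were above it on some arrays and Fosb on none, and 8 of the 10 were above it on at least 3 arrays. In the comparison of condyle with whole body, 3 of the 10 genes (Fosl2, Ier2 and Myc) were called higher and 0 lower, at an adjusted p under 0.05 from limma over all genes, where 9.34% of all genes were called higher and 13.2% in either direction. In fossa against whole body, 0 of the 10 genes were called by limma, against 19.6% of all genes. At an unadjusted p under 0.05 there were 3 (Fosb, Ier2 and Ier3), against 33.3% of all genes. In condyle against fossa, Myc alone of the 10 was called higher and 0 were called lower, against 16.8% of all genes called higher and 18.9% in either direction. At an unadjusted p under 0.05 there were 6 (Fosb, Fosl2, Jun, Ier2, Ier3 and Myc), against 33.5% of all genes. The F test for any difference among the 3 tissues called 3 of 10 (Fosl2, Ier2 and Myc), against 28.1% of all genes. Counting genes whose arrays did not overlap between 2 groups gave 4 of 10 for condyle with whole body (53.2% of all genes), 4 of 10 for fossa with whole body (42.2%) and 6 of 10 for condyle with fossa (49.7%). The 4 for fossa with whole body were Fosb, Fosl2, Junb and Ier2. Of these arrays, Fosb was above background on 0, and Junb and Ier2 on 1 fossa array each. Fosb was also among the 4 for condyle with whole body. The 3 comparisons share their arrays, so they are not independent of each other. In bulk tissue, fewer cells of a type and less RNA per cell cannot be told apart.

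**Figure D1:**
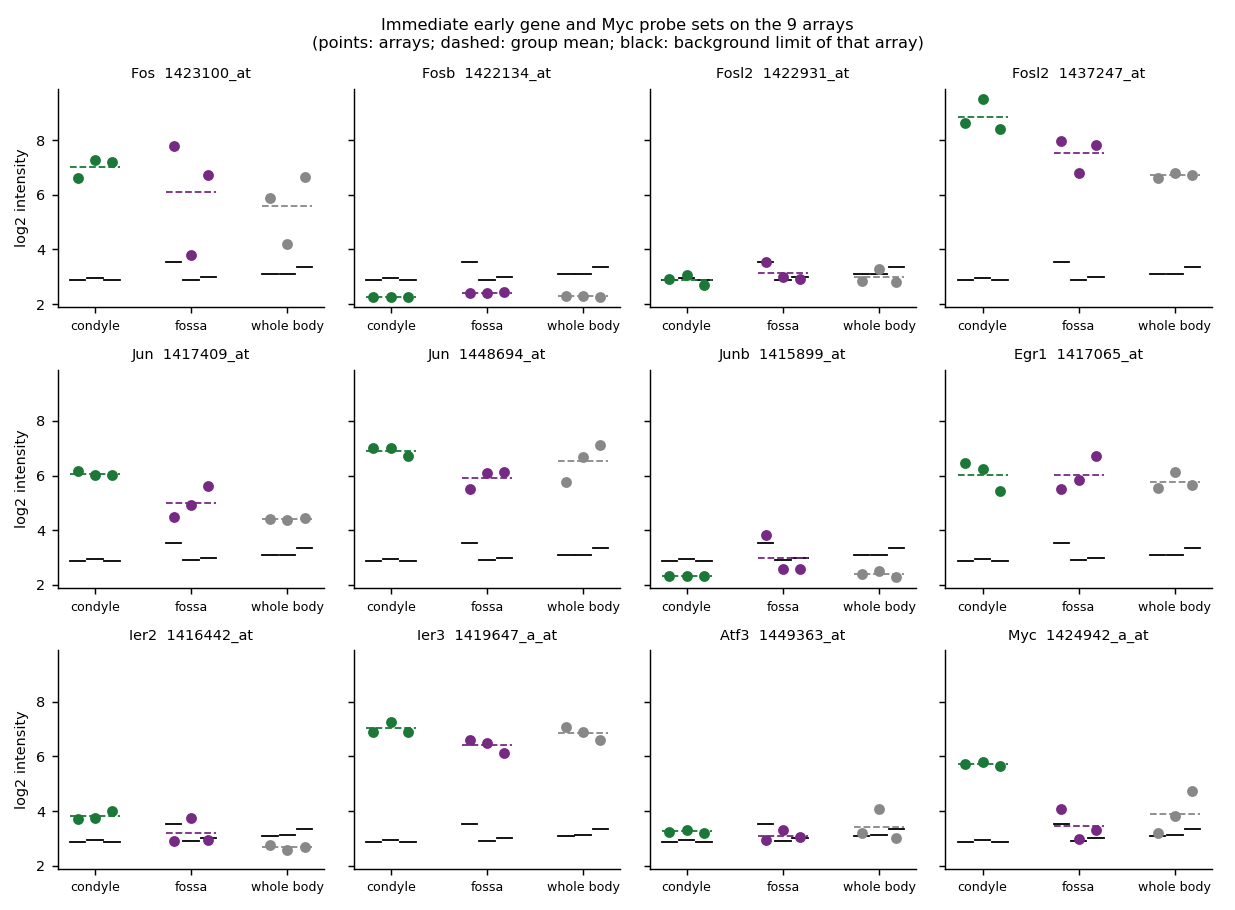
Log2 intensity (vertical axis) of the 12 probe sets on the 9 arrays, grouped by tissue along the horizontal axis. Points are arrays, dashed lines group means and short black lines the background limit of each array; Myc and Fosl2 1437247_at lie higher on all 3 condyle arrays than on any other array, Fos drops on fossa 2, and Fosb lies under the limit on all 9 arrays.

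Fos encodes the founding partner of Jun in AP-1. Its log2 intensity was 6.61, 7.27 and 7.19 on the condyle arrays. It was 7.77, 3.78 and 6.73 on the fossa arrays, and 5.88, 4.20 and 6.66 on the whole body arrays. The highest and the lowest of the 9 values were both from fossa, fossa 1 and fossa 2, and the whole body values ranged widely too. The 3 groups overlapped, and the condyle values spanned the narrowest range. On the linear scale the fossa intensities were 218, 13.7 and 106. The condyle minus whole body difference was 1.44 ± 1.06 (log2, SE, n = 3 per group), with a 95% interval of -1.06 to 3.95 and an adjusted p of 0.387. The interval holds both a fall and a rise, so no difference in Fos between the tissues was detectable at this spread. Fossa minus whole body was 0.51 (adjusted p = 0.779) and condyle minus fossa was 0.93 (adjusted p = 0.602), and both change sign when single arrays are left out. Without fossa 2, fossa minus whole body was 1.67.

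The 5 genes whose profile over the 9 arrays was closest to that of Fos were Edaradd, Gm16136, Hspa1a, Lypd6b and Tfap2c. Likeness was the root mean square of the differences between log2 values centred on each gene's mean, over 9 arrays and 11975 genes. The values were 0.42, 0.49, 0.58, 0.63 and 0.64, against an SD of 1.30 for Fos. All 5 were lowest on fossa 2, as was Fos, and their choice by likeness to Fos favours that. Edaradd encodes the adaptor of the ectodysplasin receptor and Tfap2c a transcription factor of surface ectoderm. Hspa1a encodes an inducible heat shock protein, and its level was 2.87 on fossa 2 and 4.18 to 7.71 on the other arrays. Its near copy Hspa1b was 5.62 on fossa 2 and 9.42 to 11.15 elsewhere. Other genes of the heat shock list were mixed there. Hspb1 fell to 7.22 on fossa 2, while Dnaja1 (10.02) and Hspa8 (14.92) were higher on it than on the other fossa arrays. The mean of the epithelial markers, also lowest on fossa 2, moved with Fos there. It ranked the condyle arrays and the fossa arrays as Fos did, but not the whole body arrays. Of these, whole body 2 had the lowest Fos value, 4.20, and the highest epithelial mean, 7.49. The part of the epithelial markers in the Fos values was not tested.

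**Figure D2:**
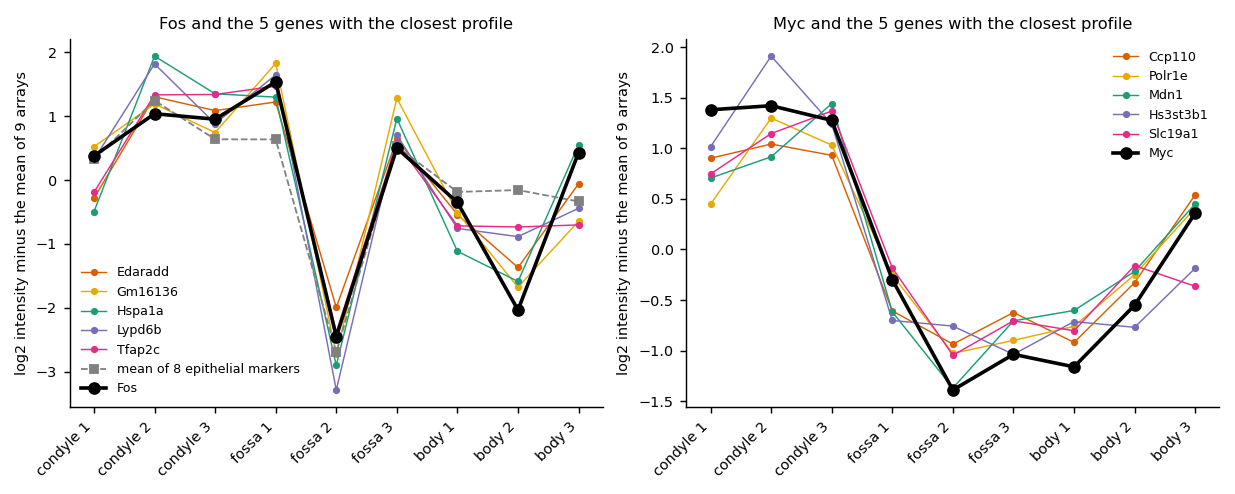
Log2 intensity minus each gene's mean of 9 arrays (vertical axis) by array (horizontal axis), for Fos with its 5 closest genes and the mean of 8 epithelial markers (left) and for Myc with its 5 closest genes (right). Fos and its neighbours share a low point on fossa 2, where Fos was 3.78, and Myc and its neighbours are high on the 3 condyle arrays. The neighbours were chosen by likeness, which favours these shared points.

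Fosl2 encodes Fra-2, a Fos relative of bone and cartilage cells. Probe set 1437247_at read 8.64, 9.52 and 8.41 on the condyle arrays, 7.97, 6.81 and 7.83 on the fossa arrays, and 6.61, 6.81 and 6.71 on the whole body arrays. The condyle values lay above all others, and the fossa values lay barely above those of whole body on fossa 2 and above them by over 1 on the log2 scale on the other fossa arrays. Fosl2 was 4.43-fold higher in condyle than in whole body, a log2 difference of 2.15 ± 0.38 (SE, n = 3 per group, adjusted p = 0.0131). This difference passed the threshold in 17 of 18 alternative settings, with adjusted p from 0.00541 to 0.051, the exception being the replicate block. By the mean of both its probe sets the difference was 1.03. Condyle minus fossa was 1.32 ± 0.38, just over the threshold at an adjusted p of 0.052, and fossa minus whole body was 0.83 (adjusted p = 0.177). The order of the means was condyle, fossa and whole body, and neither step to a neighbour was called.

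The second Fosl2 probe set, 1422931_at, stayed near background. It read 2.91, 3.08 and 2.68 in condyle, 3.53, 2.97 and 2.93 in fossa, and 2.86, 3.28 and 2.82 in whole body. Its groups overlapped in all 3 comparisons, and its condyle minus whole body value was -0.10 (adjusted p = 0.75). The statement on Fosl2 therefore rests on 1 of its 2 probe sets.

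Fosb, a further Fos relative, was at or under the background limit on all 9 arrays, between 2.25 and 2.44. Its condyle minus fossa value was -0.16 (adjusted p = 0.0537). In the fit over all probe sets the same small differences passed the threshold (fossa higher than whole body, adjusted p = 0.0283, and condyle lower than fossa, adjusted p = 0.0138). Both groups were at background in each case, so no fold is given.

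Jun, the main partner of Fos in AP-1, had 2 probe sets annotated to the same transcript, and they disagreed. Probe set 1448694_at, which stands for the gene because its mean was higher, read 7.02, 6.99 and 6.73 in condyle, 5.52, 6.10 and 6.14 in fossa, and 5.77, 6.69 and 7.12 in whole body. The whole body arrays spread across the levels of both joint tissues. Its condyle minus whole body difference was 0.39 ± 0.34 (adjusted p = 0.464), its fossa minus whole body difference was -0.61 (adjusted p = 0.263), and its condyle minus fossa difference was 1.00 (adjusted p = 0.0879), with condyle and fossa arrays not overlapping. Probe set 1417409_at read 6.17, 6.02 and 6.03 in condyle, 4.47, 4.91 and 5.60 in fossa, and 4.41, 4.36 and 4.45 in whole body. On it the whole body arrays were tightly grouped and lowest, the condyle arrays highest, and no groups overlapped. By the mean of both probe sets, Jun was called higher in condyle than in whole body (1.03, adjusted p = 0.0399) and than in fossa.

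In the fit over all probe sets, 3 of the 12 (Fosl2 1437247_at, Jun 1417409_at and Ier2) were called higher in condyle than in whole body, where 4.21% of all probe sets were called higher and 6.19% in either direction. Jun 1417409_at was 3.17-fold higher there, a log2 difference of 1.67 ± 0.25 (adjusted p = 0.0138). The call held in 16 of 17 alternatives and was lost without condyle 1 (adjusted p = 0.0514, within a range of 0.00105 to 0.0514). In condyle against fossa, Jun 1417409_at (1.08 ± 0.25, adjusted p = 0.0309) and Myc were called higher and Fosb lower, which is 3 of 12 against 16.0% of all probe sets. That Jun call held in only 7 of 17 alternatives, and quantile normalization took the difference to 0.33 (adjusted p = 0.442). The call was lost without condyle 1, 2 or 3, fossa 2 or whole body 2, at adjusted p from 0.052 to 0.0946, and also under the 75th percentile, the common floor, the replicate block and the fit of 2 groups. In fossa against whole body, the 1 of 12 called was Fosb at background, against 16.8% of all probe sets.

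**Figure D3:**
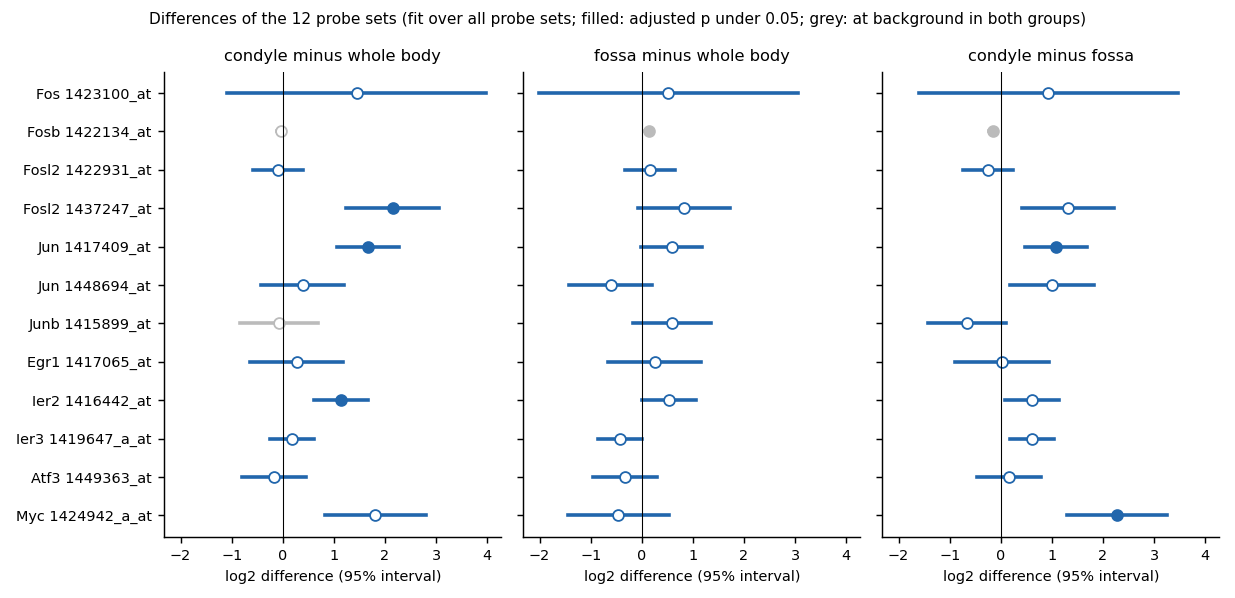
Log2 differences (horizontal axis) of the 12 probe sets (rows) in the 3 comparisons, from the fit over all probe sets, with bars for 95% intervals. Filled points have an adjusted p under 0.05 and grey points were at background in both groups; the Fos intervals are the widest, and the 2 Jun probe sets sit at 0.39 and 1.67 in condyle minus whole body.

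Junb, a Jun relative, was above background on 1 of 9 arrays, fossa 1, where it read 3.83 against 2.29 to 2.58 elsewhere. The other fossa arrays read 2.57 and 2.58, the condyle arrays 2.33 each, and the whole body arrays 2.40, 2.51 and 2.29. Fossa 1 is the array with the smallest share of probe sets above background and the highest background limit, 3.52. The 5 genes with the closest profile, Neu3, Prkag2, Gm38396, Phf24 and Il17re, were all highest on fossa 1 as well, with root mean square differences of 0.10 to 0.16 against an SD of 0.46 for Junb. Their choice by likeness to Junb favours that shared high point. The part of that array's quality in these values was not tested. In condyle minus fossa, Junb was -0.66 (adjusted p = 0.199), from values at background on 5 of these 6 arrays.

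Atf3, a stress-induced factor that pairs with Jun proteins, was near the background limit and above it on 7 of 9 arrays. It read 3.24, 3.32 and 3.20 in condyle, 2.95, 3.29 and 3.04 in fossa, and 3.18, 4.09 and 3.01 in whole body. Whole body 2 alone stood above the rest, and the groups overlapped. Condyle minus whole body was -0.18 (adjusted p = 0.659). Fossa minus whole body was -0.33 (adjusted p = 0.428), and the 2 joint tissues differed by 0.16 (adjusted p = 0.733).

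Egr1 encodes a zinc finger factor induced by the same SRF and Elk route as Fos. Its values were 6.47, 6.22 and 5.42 in condyle, 5.51, 5.83 and 6.72 in fossa, and 5.55, 6.11 and 5.65 in whole body. The lowest array was a condyle array and the highest a fossa array, and all 3 groups overlapped. Condyle minus fossa was 0.02, with a 95% interval of -0.89 to 0.93 (adjusted p = 0.98). Condyle minus whole body was 0.27 (adjusted p = 0.642) and fossa minus whole body 0.25 (adjusted p = 0.697). The interval leaves room for a difference in either direction.

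Ier2 encodes a small nuclear protein of the immediate early response. It read 3.71, 3.76 and 3.99 in condyle, 2.91, 3.76 and 2.96 in fossa, and 2.75, 2.59 and 2.69 in whole body. All 3 condyle arrays were above background, as were 1 fossa array (fossa 2) and 0 whole body arrays. Ier2 was at least 1.55-fold higher in condyle than in whole body, with a log2 difference of the measured values of 1.14 ± 0.22 (adjusted p = 0.0186). The call passed in 13 of 18 alternatives. It was lost with a replicate block and without condyle 2 (adjusted p = 0.0507), condyle 3 (0.0624) or whole body 2 (0.0617), and with values raised to a common floor the difference was 0.30 (adjusted p = 0.109, the highest of a range from 0.00204). Condyle minus fossa was 0.61 (adjusted p = 0.104), with 2 fossa arrays at background, and became 0.88 (adjusted p = 0.0067) without fossa 2, the array on which Ier2 reached the condyle level.

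Ier3 encodes a stress-inducible regulator of cell survival. It read 6.91, 7.27 and 6.90 in condyle, 6.62, 6.50 and 6.13 in fossa, and 7.07, 6.89 and 6.59 in whole body. Condyle arrays lay above all fossa arrays. In either direction, arrays of these groups did not overlap for 6 of the 10 genes (4 higher and 2 lower in condyle), against 49.7% of all genes. The 2 lower were Fosb and Junb, which were at background on most of these arrays. The condyle minus fossa difference of 0.61 ± 0.18 had an adjusted p of 0.0607 and was -0.09 under quantile normalization. Fossa minus whole body was -0.44 (adjusted p = 0.149), and condyle minus whole body was 0.17 (adjusted p = 0.533).

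Myc read 5.74, 5.78 and 5.63 on the condyle arrays, 4.06, 2.97 and 3.32 on the fossa arrays, and 3.20, 3.81 and 4.72 on the whole body arrays. On the linear scale these are intensities of 53.4, 54.9 and 49.7 in condyle, 7.83 to 16.7 in fossa, and 9.18, 14.0 and 26.3 in whole body. The 3 condyle arrays agreed closely and stood above the other 6, while fossa and whole body overlapped. Myc was 4.81-fold higher in condyle than in fossa, a log2 difference of 2.27 ± 0.41 (SE, n = 3 per group, adjusted p = 0.0123). It was 3.51-fold higher in condyle than in whole body, a difference of 1.81 ± 0.41 (adjusted p = 0.0313). Fossa minus whole body was -0.46 (adjusted p = 0.486). Myc lay close to the background limit on fossa 2 (2.97, limit 2.89), fossa 3 (3.32, limit 3.00) and whole body 1 (3.20, limit 3.09). Both folds of condyle thus rest partly on values near background in the other group.

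The condyle minus fossa difference of Myc passed the threshold in 17 of 18 alternatives, and under quantile normalization it was 1.59 (adjusted p = 0.113, the highest of a range from 0.00754). The condyle minus whole body difference passed in 10 of 18, with adjusted p from 0.0143 to 0.116. It was lost without condyle 1 (0.0856), condyle 2 (0.0841), condyle 3 (0.08), fossa 3 (0.053), whole body 1 (0.0711) or whole body 2 (0.0898), under quantile normalization (1.47, adjusted p = 0.116) and with a replicate block. In the separate fit over all probe sets its adjusted p was 0.0525. In both comparisons the difference stayed above 1 on the log2 scale in all 18 alternatives.

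**Figure D4:**
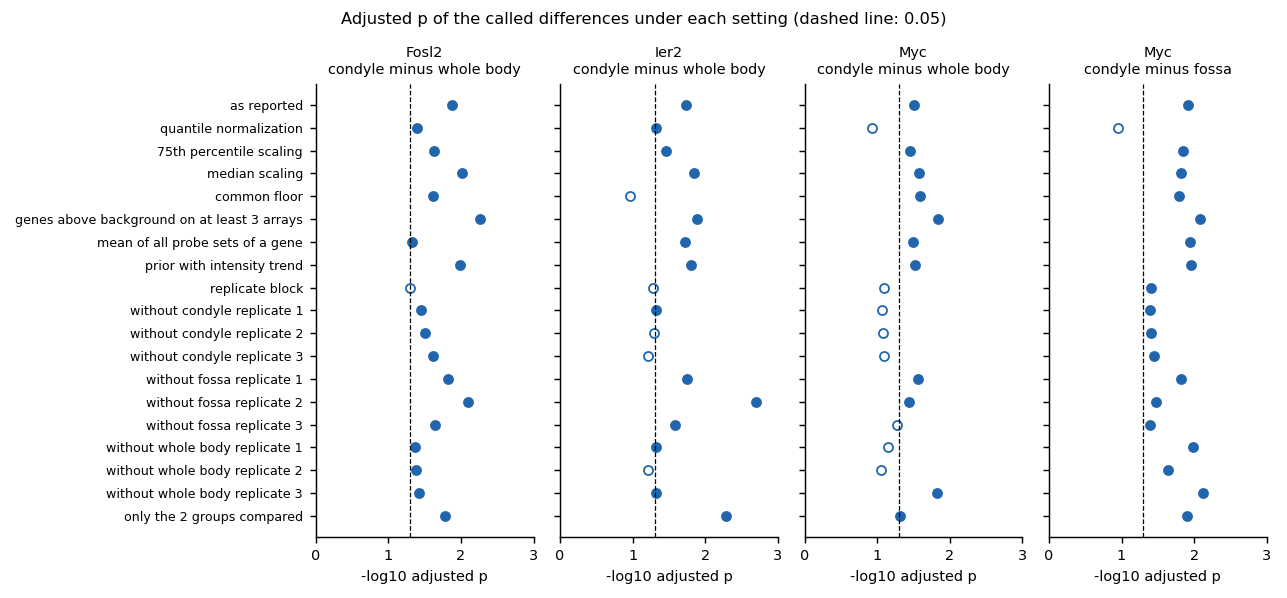
Minus log10 of the adjusted p (horizontal axis) of the 4 called differences (panels) under each setting (rows); points right of the dashed line (0.05) are filled and passed. Fosl2 passed in 17 of 18 alternatives, Ier2 in 13, and Myc in 10 against whole body and in 17 against fossa.

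The 5 genes closest to Myc over the 9 arrays were Ccp110, Polr1e, Mdn1, Hs3st3b1 and Slc19a1, with root mean square differences of 0.35, 0.39, 0.39, 0.41 and 0.41 against an SD of 1.08 for Myc. Polr1e encodes a subunit of RNA polymerase I, and Mdn1 a factor of ribosome assembly. Ccp110 encodes a centriole protein, Hs3st3b1 a heparan sulfate enzyme and Slc19a1 the reduced folate carrier. Ccp110 read 6.22, 6.36 and 6.24 in condyle, 4.71, 4.38 and 4.69 in fossa, and 4.40, 4.99 and 5.86 in whole body. Like Myc, it was high on every condyle array and within whole body highest on the third array, which its choice by likeness to Myc favours.

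The median difference of the 10 genes was 0.33 for condyle against whole body, 0.19 for fossa against whole body and 0.61 for condyle against fossa. Over all genes the medians, in this order, were -0.03, -0.11 and 0.21. Under scaling to the 75th percentile the medians of the 10 genes were -0.07, 0.46 and -0.06, beside -0.43, 0.16 and -0.45 over all genes. That scaling moves every gene of an array alike, so the distance between the 2 medians is the same in both settings. Array condyle 2 held the highest value for 3 of the 10 genes.

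For the related gene lists, the counts stand beside the 13.2%, 19.6% and 18.9% of all genes called in either direction in condyle against whole body, fossa against whole body and condyle against fossa. Under scaling to the 75th percentile all genes together turned to 1459 higher and 7143 lower in condyle than in whole body and to 715 higher and 6427 lower in condyle than in fossa, so a list that turned with them did what all genes did. Among 16 other measured AP-1 partners (other leucine zipper factors), 0 were higher and 1 lower in condyle than in whole body, 0 higher and 5 lower in fossa than in whole body, and 3 higher and 1 lower in condyle than in fossa, where 13.2%, 19.6% and 18.9% of all genes were called. Under the 75th percentile there were 1 higher and 6 lower in condyle than in whole body and 1 higher and 5 lower in condyle than in fossa. The 1 lower in condyle than in fossa was Batf, at background in both groups. Bach1, a repressor that pairs with small Maf proteins, was lower in fossa than in whole body (-1.99 ± 0.35, adjusted p = 0.00888), and by the mean of its probe sets the difference was -1.05. Maff, a small Maf, was at least 1.50-fold higher in condyle than in fossa (adjusted p = 0.000901), with 2 of 3 fossa arrays above background. The difference of its measured values was 0.72, which became 0.36 with quantile normalization, 0.41 with the common floor and 0.05 with the 75th percentile, where it was not called. Jund, the third Jun protein, read 1.27 ± 0.37 in condyle minus whole body (adjusted p = 0.0652). Fosl1, which encodes Fra-1, was at background on all 9 arrays.

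Of 18 other immediate early factors, 1 was higher and 0 lower in condyle than in whole body, 1 higher and 2 lower in fossa than in whole body, and 3 higher and 0 lower in condyle than in fossa, against 13.2%, 19.6% and 18.9% of all genes. The last count was 0 under quantile normalization and 1 higher and 2 lower under the 75th percentile. Klf10, a factor induced by TGF-beta, was higher in condyle than in fossa (2.01 ± 0.31, adjusted p = 0.00664) and lower in fossa than in whole body (-1.80, adjusted p = 0.00785). The first was not called under quantile normalization (1.29, adjusted p = 0.0655). Egr2, a relative of Egr1, was at least 2.20-fold higher in condyle than in whole body (adjusted p = 0.0327), in 9 of 18 alternatives. Leaving out condyle 1, condyle 2, fossa 3, whole body 2 or whole body 3 ended that call, at adjusted p from 0.0564 to 0.0928. Egr3 was 1.67 higher on the log2 scale in fossa than in whole body (adjusted p = 0.0451), and this call was lost without any 1 of 7 arrays, which were condyle 1 and every fossa and whole body array (adjusted p 0.0593 to 0.132). Srf itself read 1.00 in condyle minus fossa (adjusted p = 0.0424), called in 8 of 18 alternatives. The call was lost under quantile normalization, the 75th percentile, the common floor and the replicate block. It was also lost without any 1 of the condyle arrays, fossa 1, fossa 3 or whole body 3. Over all alternatives the difference fell as low as 0.32 and the adjusted p rose as high as 0.602.

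Of 29 effectors of the immediate early response (phosphatases, RNA-binding and secreted proteins and the like), 1 was higher and 1 lower in condyle than in whole body, 1 higher and 5 lower in fossa than in whole body, and 6 higher and 0 lower in condyle than in fossa, against 13.2%, 19.6% and 18.9% of all genes. Under the 75th percentile the effectors turned to 1 higher and 8 lower in condyle than in whole body and 1 higher and 6 lower in condyle than in fossa, as all genes turned. Plk2, a polo-like kinase, was at least 6.05-fold higher in condyle than in fossa (adjusted p = 0.00355) and at least 3.81-fold lower in fossa than in whole body (adjusted p = 0.00716), with 1 of 3 fossa arrays above background. Both calls held in all 18 alternatives, but by the mean of its probe sets the log2 differences were 1.27 and -0.95. Gadd45b, a stress-induced partner of MAP3K4, was 1.60 ± 0.31 higher in condyle than in whole body (adjusted p = 0.0193). That call was lost without condyle 2 (0.0616), condyle 3 (0.0578) or whole body 2 (0.0647). Dusp1, the phosphatase that ends MAP kinase signals, read 1.01 in condyle minus fossa (adjusted p = 0.0845).

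Among 14 measured kinases and factors upstream of the immediate early genes, 3 were higher and 0 lower in condyle than in whole body, 1 higher and 1 lower in fossa than in whole body, and 5 higher and 0 lower in condyle than in fossa, against 9.34% of all genes higher in the first of these comparisons and 16.8% in the last. Under quantile normalization and under the 75th percentile the last count was 0. Elk4, an SRF partner at Fos and Egr1, was higher than in whole body in condyle (2.25 ± 0.26, adjusted p = 0.00296) and in fossa (1.59 ± 0.26, adjusted p = 0.00688). Both calls held in all 18 alternatives, but with all its probe sets averaged the differences shrank to 0.52 and 0.32. Mrtfb, an actin-regulated SRF coactivator, was 1.47 higher in condyle than in whole body (adjusted p = 0.00482), and 0.44 by the mean of its probe sets. Creb1 was lower in fossa than in whole body (-1.30 ± 0.18, adjusted p = 0.00337), and the difference was -0.85 with quantile normalization and -0.38 by the mean of its probe sets.

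Of 14 genes of the Myc network (Myc relatives, Max and its other partners, and regulators of Myc stability), 2 were higher and 0 lower in condyle than in whole body, 0 higher and 1 lower in fossa than in whole body, and 2 higher and 0 lower in condyle than in fossa, which is near the 13.2%, 19.6% and 18.9% of all genes or under them. Quantile normalization left 0 called in either condyle comparison, and the 75th percentile gave 0 higher and 3 lower in condyle than in fossa. Max was above background on 2 of 9 arrays. Mycn read 6.23, 5.58 and 8.06 in condyle and 5.52, 5.32 and 5.26 in whole body, a difference of 1.25 (adjusted p = 0.332) that was spread unevenly over the condyle arrays.

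Of 21 measured genes known as Myc targets, 10 were higher and 0 lower in condyle than in whole body, 3 higher and 3 lower in fossa than in whole body, and 10 higher and 0 lower in condyle than in fossa. Of all genes, 9.34% were called higher in the first of these comparisons and 16.8% in the last. The median differences of the Myc targets were 1.14, -0.03 and 1.10, beside -0.03, -0.11 and 0.21 over all genes. With quantile normalization the counts were 7 higher and 1 lower, 3 higher and 2 lower, and 2 higher and 0 lower, with medians of 0.97, 0.40 and 0.45. With the 75th percentile they were 10 higher and 2 lower, 3 higher and 1 lower, and 5 higher and 1 lower. Ldha, a glycolytic enzyme, was higher in condyle than in whole body (1.83 ± 0.24, adjusted p = 0.00446) and than in fossa (1.98 ± 0.24, adjusted p = 0.00306), in all 18 alternatives. The second was 1.32 with the 75th percentile. Srm, spermidine synthase, was 1.99 ± 0.32 higher in condyle than in whole body (adjusted p = 0.00925), also in all 18.

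Nolc1, a nucleolar protein, was 3.30 ± 0.46 higher in condyle than in whole body (adjusted p = 0.00549) by its brightest probe set and 1.10 (adjusted p = 0.057) by the mean of its probe sets. Cad, which starts pyrimidine synthesis, was 1.65 ± 0.11 higher there (adjusted p = 0.000291), and 0.82 (adjusted p = 0.0774) by the mean of its probe sets. Odc1, the ornithine decarboxylase of polyamine synthesis, went the other way in fossa, 1.77 on the log2 scale lower than in whole body (adjusted p = 0.0109). The Myc level and the level of these genes were read from the same arrays, and nothing here ties one to the other.

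Among 17 measured heat shock and stress genes, 3 were higher and 0 lower in condyle than in whole body, 2 higher and 4 lower in fossa than in whole body, and 7 higher and 1 lower in condyle than in fossa, against 13.2%, 19.6% and 18.9% of all genes. Quantile normalization turned the last count to 0 higher and 1 lower, and the 75th percentile to 1 higher and 1 lower. The 75th percentile also gave 2 higher and 4 lower in condyle than in whole body. Ddit4, a stress-induced inhibitor of mTOR, was higher than in whole body in condyle (2.25 ± 0.21, adjusted p = 0.00145) and in fossa (1.49 ± 0.21, adjusted p = 0.00414). Bag3, a co-chaperone, was 1.43 ± 0.16 higher in condyle than in whole body (adjusted p = 0.00266). Hsp90aa1 was lower in fossa than in whole body (-1.38 ± 0.17, adjusted p = 0.00205), and the difference was -0.88 with quantile normalization and -0.75 by the mean of its probe sets. These 4 calls held in all 18 alternatives.

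**Figure D5:**
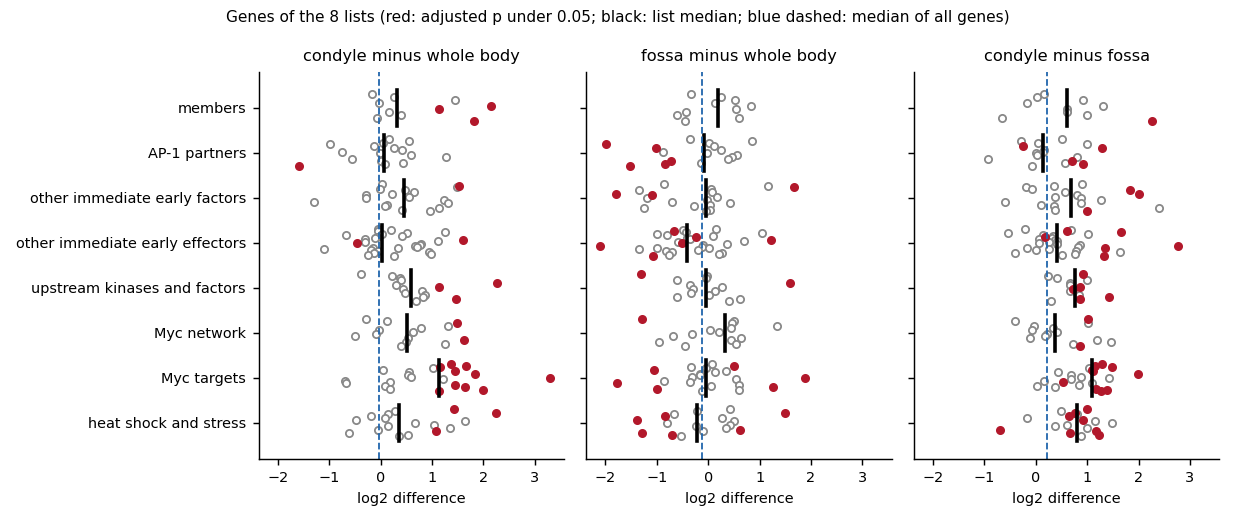
Log2 differences (horizontal axis) of the genes of the 8 lists (rows) in the 3 comparisons; each point is a gene, red points have an adjusted p under 0.05, black bars are list medians and the blue dashed line is the median of all genes. The Myc targets lie furthest to the right in the condyle comparisons, with medians of 1.14 and 1.10, and the 10 immediate early genes and Myc hold 3, 0 and 1 called genes.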

How the data were processed

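RNA of 3 condyle, 3 fossa and 3 whole body samples was labelled with biotin and hybridised to 9 arrays. The authors deposited intensities on a linear scale, from 3.25 to 67159. The submitters' processing notes name limma. Background correction, normalization and probe summary are not given in the sources used here, and the deposited scale was kept. Values under 1 were set to 1, and log2 was taken. Probe sets were named through the platform table, which gave 34945 with 1 symbol, 932 with several and 9160 with none, beside 64 controls. A gene was read from its probe set with the highest mean. Its fold is "at least" where an array of the dimmer group was not above the background limit, which then stands for that array.

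Genes were tested with lmFit and eBayes of limma version 3.58.1 (R version 4.3.3) in 1 fit of 3 groups with 6 residual degrees of freedom, with Benjamini-Hochberg adjustment over all genes. All probe sets but the controls were fitted likewise. The code was tested on simulated data. Alternatives were other scalings, a common floor, a filter on dim genes, the mean of a gene's probe sets, an intensity trend, a replicate block, fits of 2 groups and leaving out each array.

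The members and gene lists were chosen with earlier results of these data known. Named genes are all members, at most 4 called genes of each list and comparison by size of difference, and the 5 nearest profiles of Fos, Junb and Myc. Dusp1, Jund, Fosl1, Mycn, Max, Hspa1b, Hspb1, Dnaja1 and Hspa8 were added after their values were seen. Some genes of the lists are not analysed here. The number of arrays limits the precision.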

Additional observations from a re-analysis of the deposited data

How the results depend on the processing

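All called differences of the 10 genes kept their sign in every alternative run. Of the single-gene values, 1386 kept direction and side of the threshold, 319 dropped below it, 25 passed it newly and 30 changed sign. The cause was not tested for any of them. From 2398 genes called in condyle against whole body, scaling to the 75th percentile gave 8602 (1459 higher, 7143 lower). From 3559 in fossa against whole body, the common floor gave 1893. From 3440 in condyle against fossa, quantile normalization gave 1176, the 75th percentile 7142 and the floor 1823. From 5119 by the F test, these gave 3149, 9778 and 3024. The share of calls that were higher in condyle was 70.9% against whole body (50.5% with quantile normalization, 17.0% with the 75th percentile) and 88.8% against fossa (58.8% with quantile normalization and 715 of 7142 calls with the 75th percentile). The median of all genes in condyle minus fossa was 0.21, -0.01 and -0.45 in these 3 settings.

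The replicate block gave 0 genes of the 10 called in condyle against whole body in place of 3 (Fosl2 at an adjusted p of 0.051, Ier2 at 0.0518 and Myc at 0.0792). There the mean of probe sets gave 4, all higher, with Jun added, and the 75th percentile gave 4 (3 higher, 1 lower). Quantile normalization and the common floor gave 2 each, all higher. In fossa against whole body, 1 was called higher in place of 0 under quantile, 75th percentile and median scaling and the trend. In condyle against fossa, 1 called gene became 0 under quantile normalization, 2 under median scaling (1 higher, 1 lower), 2 under the filter on dim genes and the block (both higher), 3 under the 75th percentile (1 higher, 2 lower), and 3 under the mean of probe sets, the trend and the fit of 2 groups (2 higher, 1 lower). Of the 12 probe sets, the 3 called in condyle against whole body became 1 under quantile normalization, the floor and the block and 5 under the 75th percentile (4 higher, 1 lower). The 1 in fossa against whole body became 2 under quantile normalization and 0 under the floor, the filter, the block and the fit of 2 groups, and the 3 in condyle against fossa (2 higher, 1 lower) became 1 lower under quantile normalization and 1 higher under the floor.

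Leaving out 1 array gave 1470 to 2591, 2343 to 3352 and 2086 to 3515 genes called in condyle against whole body, fossa against whole body and condyle against fossa, and 3594 to 4673 by the F test. It gave 1 to 3, 0 to 1 and 1 to 3 of the 10 genes, and 0 to 4, 0 to 2 and 1 to 4 of the 12 probe sets.

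Signs changed for values that were not called. Under quantile normalization condyle minus whole body was 0.010 for Fosb, -0.035 for Jun, -0.22 for Egr1 and -0.20 for Ier3. Condyle minus fossa was -0.75 for Egr1, -0.091 for Ier3 and -0.0003 for Atf3. Under the 75th percentile condyle minus whole body was -0.009 for Jun, -0.13 for Egr1 and -0.22 for Ier3, and condyle minus fossa was -0.65 for Egr1, -0.057 for Ier2, -0.059 for Ier3 and -0.51 for Atf3. Under median scaling condyle minus whole body was 0.083 for Fosb, 0.045 for Junb and 0.020 for Fosl2 1422931_at, and condyle minus fossa was -0.007 for Egr1. Leaving out 1 array moved Fos from -0.32 to 1.67 in fossa minus whole body and from -0.23 to 1.77 in condyle minus fossa, and Egr1 from -0.10 to 0.50 and from -0.23 to 0.37 in the same comparisons. It moved Atf3 from -0.38 to 0.15 in condyle minus whole body, and Fosl2 1422931_at from -0.19 to 0.050 there and from -0.037 to 0.30 in fossa minus whole body.

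The replicate block left 1691, 2779 and 2537 genes called in the 3 comparisons and 3724 by the F test. Same-numbered arrays correlated at -0.45 to 0.15 over 9 pairs, with 1 pair over 0.1, and 4 of 9 arrays matched best with their own number. Differently numbered arrays correlated at -0.17 to 0.45 over 18 pairs, with 2 pairs over 0.1. These 2 were condyle 1 with fossa 2 and condyle 2 with fossa 1, both at 0.45. The labels do not say whether same-numbered arrays share an embryo, and these correlations cannot decide it. Signal over background limits what can be said of Fosb, Junb, Ier2 and Atf3, and of the size of the Myc differences.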
